A study of Homo sapiens with 18 samples.

Results

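The miR-200 family was followed in HCT116 cells, a human colorectal carcinoma line of epithelial origin, as the cultures grew from sparse to overgrown. Its members were the rows of the small-RNAseq table for miR-200a, miR-200b, miR-200c, miR-141 and miR-429, chosen by name, which gave 9 mature strands among 2167 mature miRNA rows. They were HSA-MIR-200A-3P, HSA-MIR-200A-5P, HSA-MIR-200B-3P, HSA-MIR-200B-5P, HSA-MIR-200C-3P, HSA-MIR-200C-5P, HSA-MIR-141-3P, HSA-MIR-141-5P and HSA-MIR-429, whose row carries no arm. All 9 passed the filter on low values in each comparison. Wild-type cells, with no agent added, were harvested as whole cells on day 3 at 50% confluency, day 5 at 250% and day 7 at 400%. Each day had 3 small-RNAseq libraries, labelled as biological replicates, and whole transcriptome values were analysed for 3 libraries each of days 3 and 5. Time in culture and density rose together, so they cannot be told apart, and all libraries come from 1 cell line. Whole transcriptome values of day 7 were not analysed here.

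Mature miRNAs guide Argonaute proteins to mRNAs, mainly through the seed, bases 2 to 8 from the 5′ end, which pairs with sites in the 3′UTR. The miR-200 family is known as a guardian of the epithelial state: it represses ZEB1 and ZEB2, transcription factors that switch off CDH1 (E-cadherin), and ZEB1 and ZEB2 in turn repress both miR-200 clusters. Each hairpin can yield a strand from either side, the 5p and the 3p arm, and in this family the 3p strand is the main guide.

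The family is shown by sequence because its members fall into groups by seed that cut across the clusters. RefSeq (GRCh38.p14) held mature sequences for 8 of the 9 strands. They are printed 5′ to 3′ with the seed in capitals. The 3p strands with the seed AAUACUG were these.
HSA-MIR-200B-3P: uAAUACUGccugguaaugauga
HSA-MIR-200C-3P: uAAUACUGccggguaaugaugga
HSA-MIR-429: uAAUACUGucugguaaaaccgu
The 3p strands with the seed AACACUG were these.
HSA-MIR-200A-3P: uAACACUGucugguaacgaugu
HSA-MIR-141-3P: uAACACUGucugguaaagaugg
The 5p strands were these.
HSA-MIR-200A-5P: cAUCUUACcggacagugcugga
HSA-MIR-200B-5P: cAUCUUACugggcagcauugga
HSA-MIR-200C-5P: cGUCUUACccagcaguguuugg
Both 3p seeds differ at position 4 from the 5′ end of the strand, given as C4U from miR-141-3p or miR-200a-3p to the others. Among 2370 mature entries, AAUACUG occurred only in its 3 family members and AACACUG only in its 2. The seed of miR-200c-5p was shared with miR-550a-3p.

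The pairs with the same seed in different clusters were close to identical. From miR-200b-3p to miR-200c-3p the substitutions were U11G and A22G, and miR-200c-3p was 1 base longer. From miR-141-3p to miR-200a-3p they were A17C and G22U. How the authors' counting assigned reads that match both members of such a pair is not given in the sources used here, so the split within each pair is uncertain.

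On GRCh38, MIR200B (chr1:1167104-1167198), MIR200A (chr1:1167863-1167952) and MIR429 (chr1:1169005-1169087) lie on the plus strand of chromosome 1 within no annotated gene of GENCODE release 44. The nearest annotated gene, 270 bases from MIR429, is the lncRNA ENSG00000272141. MIR200C (chr12:6963699-6963766) and MIR141 (chr12:6964097-6964191) lie on the plus strand of chromosome 12, both in the intron of the lncRNA MIR200CHG. The clusters are called 200b-200a-429 and 200c-141 below.

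The deposited small RNA values are log2 values normalised between libraries by the authors. They were tested as deposited with limma, with Benjamini-Hochberg adjustment over all miRNAs tested and a threshold of 0.05. Back-transformed sums per library ran from 1542087 to 1947371 on days 3 and 5 and from 2452607 to 2600754 on day 7, so the deposited scale gives day 7 a larger miRNA total. Each result is therefore given also on library totals, where a strand is expressed relative to its own library's sum, scaled to 1000000. This is written CPM here, although it comes from normalised values and not from counts. The study reports a global rise of miRNAs at high density, and measured miRNAs selected for the greatest increase by RT-qPCR. A rise shared by all miRNAs is taken out on library totals. Whether a strand that passed only as deposited had part in such a rise was not tested. For day 7 against day 3 the 559 miRNAs tested had a median log2 difference of 0.30 as deposited and of -0.20 on library totals. The study states a range of reads per library, but the files give no read count for a miRNA, so the counts behind these values are unknown.

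Across all days the family was led by miR-141-3p, followed by miR-200c-3p and miR-429. On day 3 the mean levels in CPM were 5673 ± 281 for miR-141-3p (SD, n = 3), 3958 ± 86 for miR-200c-3p and 2434 ± 101 for miR-429. Then came miR-200b-3p at 1301 ± 50, miR-141-5p at 1054 ± 1.17, miR-200a-3p at 478 ± 15, miR-200a-5p at 173 ± 6.16, miR-200b-5p at 99.8 ± 2.83 and miR-200c-5p at 52.5 ± 7.82. In CPM the 3 libraries of each strand lay apart from those of its neighbour in this order on every day, and on the deposited scale miR-200b-3p and miR-141-5p overlapped on day 3. On days 5 and 7 that pair had changed places, and miR-141-5p stood above miR-200b-3p with no overlap on both scales. By rank among all mature miRNAs, miR-141-3p was between 26 and 37 in every library, and miR-200c-5p between 266 and 292.

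**Figure D1:**
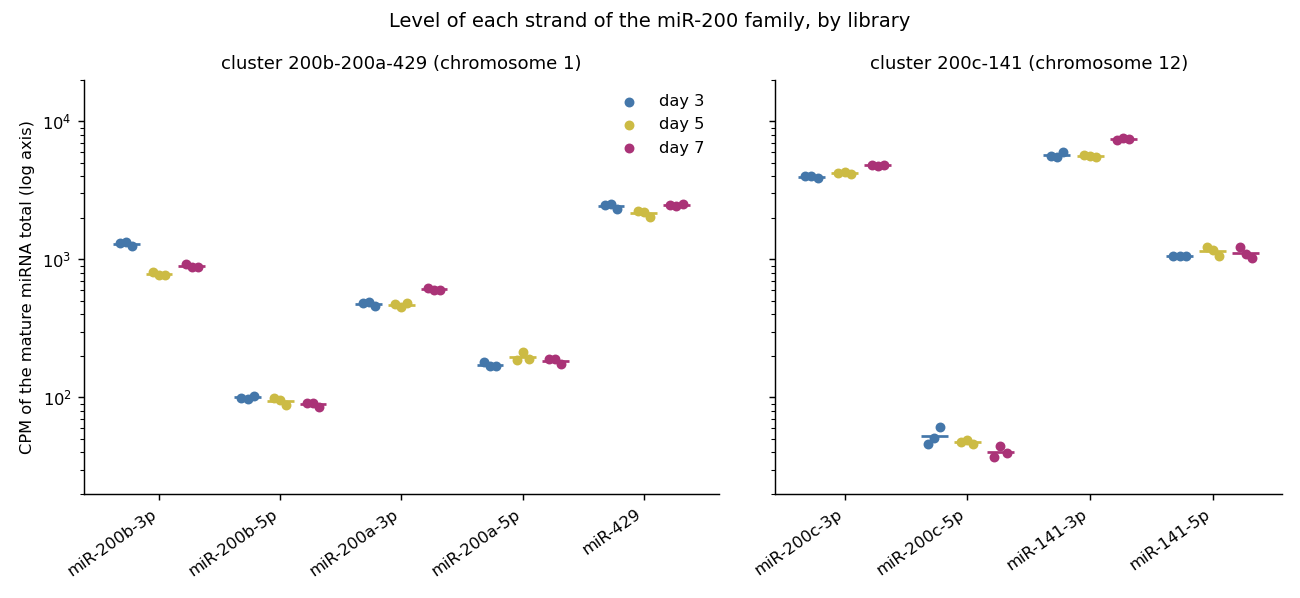
Level of each strand in each library, in CPM of the library's mature miRNA total on a log axis, with points for the 3 libraries of a day and a bar for their mean. miR-200b-3p is the only 3p strand whose day 7 libraries lie below all of its day 3 libraries, and the highest value of a 5p strand other than miR-141-5p is 214.

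Summed over its 9 strands, the family made up 1.52% ± 0.0040 of all mature miRNA values at day 3 (SD, n = 3), 1.47% ± 0.037 at day 5 and 1.76% ± 0.0019 at day 7, with no overlap between days. The cluster 200c-141 held most of this, with 1.07% ± 0.020, 1.10% ± 0.025 and 1.34% ± 0.0032 in the order of days. The cluster 200b-200a-429 held 0.449% ± 0.016, 0.370% ± 0.012 and 0.425% ± 0.0041. Its share was thus lower on both later days than on day 3 in every library, while the share of 200c-141 overlapped between days 3 and 5 and was higher in every library on day 7. By seed, strands with AACACUG took 0.615% ± 0.027, 0.608% ± 0.0088 and 0.803% ± 0.0097, and strands with AAUACUG took 0.769% ± 0.024, 0.718% ± 0.020 and 0.819% ± 0.0078.

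miR-200b-3p stood apart from its family from day 5 onwards. Its values in CPM were 1314, 1343 and 1246 in the day 3 libraries, 813, 767 and 773 on day 5 and 924, 876 and 884 on day 7. In CPM every day 5 and day 7 library lay below every day 3 library, and day 7 lay a little above day 5. On the deposited scale its mean log2 values were 11.17, 10.45 and 11.14 in the order of days. There the day 5 libraries lay below day 3, but those of day 7 lay within the range of day 3. Day 7 was thus lower than day 3 as a share of the library's total, and not as deposited. In RNA from whole cultures, a lower level in each cell and fewer cells carrying the strand cannot be told apart.

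Between day 3 and day 5, miR-200b-3p was the only family strand that passed the test. It fell by 0.72 on the log2 scale (SE 0.13, adjusted p = 0.0097, limma) as deposited and by 0.73 (SE 0.060, adjusted p = 0.0011) on library totals, where its day 5 mean was 0.603 times that of day 3. Of all 539 miRNAs tested, 14.8% passed in either direction and 6.31% were lower, and on library totals 11.7% were lower. The other 8 strands had log2 differences between -0.16 (miR-429) and 0.19 (miR-200a-5p), with adjusted p between 0.41 and 0.98. In CPM the libraries of these days did not overlap for miR-200c-3p, miR-200a-5p and miR-141-5p, with day 5 above, or for miR-429, with day 5 below. For miR-141-5p the gap was narrow, from 1055 for the highest day 3 library to 1056 for the lowest of day 5. The share of all miRNAs without overlap in CPM is not given here. Without the filter on low values the adjusted p of miR-200b-3p was 0.084, over 2167 rows.

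Against day 3, day 7 was higher for most of the family on the deposited scale. Called higher were 7 of 9 strands, where 45.3% of all miRNAs tested were higher and 53.7% passed in either direction. The largest differences were those of miR-141-3p, with 0.89 (SE 0.11, adjusted p = 0.00035), miR-200a-3p, with 0.84 (SE 0.13, adjusted p = 0.0010), and miR-200c-3p, with 0.78 (SE 0.13, adjusted p = 0.0013). miR-200b-3p did not pass, at -0.04 (SE 0.13, adjusted p = 0.83), nor did miR-200c-5p, at 0.13 (SE 0.12, adjusted p = 0.41). The median over the 9 strands was 0.58, beside 0.30 for all miRNAs.

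On library totals the family split. The strands miR-141-3p, with 0.39 (SE 0.063, adjusted p = 0.0039), miR-200a-3p, with 0.34 (SE 0.058, adjusted p = 0.0046), and miR-200c-3p, with 0.28 (SE 0.055, adjusted p = 0.0073), were higher on day 7 than on day 3, where 16.6% of all miRNAs were. The strands miR-200b-3p, which fell by 0.54 (SE 0.062, adjusted p = 0.0011), and miR-200c-5p, which fell by 0.37 (SE 0.13, adjusted p = 0.044), were lower, where 40.4% were. miR-429 was at 0.03 (SE 0.060, adjusted p = 0.71). Thus a higher level on day 7 was called on both scales for miR-141-3p, miR-200a-3p and miR-200c-3p. For miR-429 and the 5p strands of miR-141, miR-200a and miR-200b it was called as deposited but not on library totals. Without the filter on low values miR-429 (adjusted p = 0.078, limma) and miR-200b-5p (adjusted p = 0.089) lost this call, and miR-200b-5p lost it with median centring too (adjusted p = 0.062). The fall of miR-200c-5p passed in 1 of the 6 fits that each left out a library, the fit without day 3 replicate 1, with adjusted p from 0.032 to 0.12.

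These strands gave their values library by library as follows. miR-141-3p had 5558, 5467 and 5993 CPM on day 3, 5688, 5623 and 5509 on day 5, and 7305, 7518 and 7456 on day 7. miR-200a-3p had 485, 487 and 461, then 476, 454 and 479, and on day 7 620, 595 and 600. For both, days 3 and 5 overlapped and every day 7 library lay above them.
miR-200c-3p had 3995, 4020 and 3860 on day 3, 4235, 4328 and 4136 on day 5, and 4822, 4773 and 4850 on day 7, so that its 3 days did not overlap. miR-429 had 2487, 2497 and 2318 on day 3, 2225, 2212 and 2039 on day 5, and 2461, 2454 and 2521 on day 7. Its day 5 libraries were the lowest, and days 3 and 7 overlapped.

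Against day 5, day 7 was higher for 8 of 9 strands on the deposited scale, where 39.3% of all miRNAs were higher and 44.3% passed in either direction. The log2 differences ran from 0.40 for miR-200a-5p (SE 0.13, adjusted p = 0.028) to 0.90 for miR-141-3p (SE 0.090, adjusted p = 0.00017), with miR-200c-5p at 0.25 (SE 0.11, adjusted p = 0.092). Without the filter miR-141-5p (adjusted p = 0.058) and miR-200a-5p (adjusted p = 0.13) lost this call, as did miR-200b-5p with median centring (adjusted p = 0.056). On library totals the strands that passed were the 5 main ones, the 3p strands and miR-429, all higher, where 10.6% of all miRNAs were. miR-141-3p was then at 0.41 (SE 0.053, adjusted p = 0.00089), miR-200a-3p at 0.37 (SE 0.051, adjusted p = 0.0012), and miR-429, miR-200b-3p and miR-200c-3p between 0.19 and 0.20 with adjusted p between 0.011 and 0.019. With a library left out, miR-200b-3p passed in 3 of 6 fits and miR-429 in 4 of 6. The 5p strands were between -0.24 and -0.04 there, and none passed in limma, also not at an unadjusted p under 0.05. In this step the main strands of both clusters differed in the same direction, and the value of miR-200b-3p lay between those of miR-200c-3p and miR-429.

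**Figure D2:**
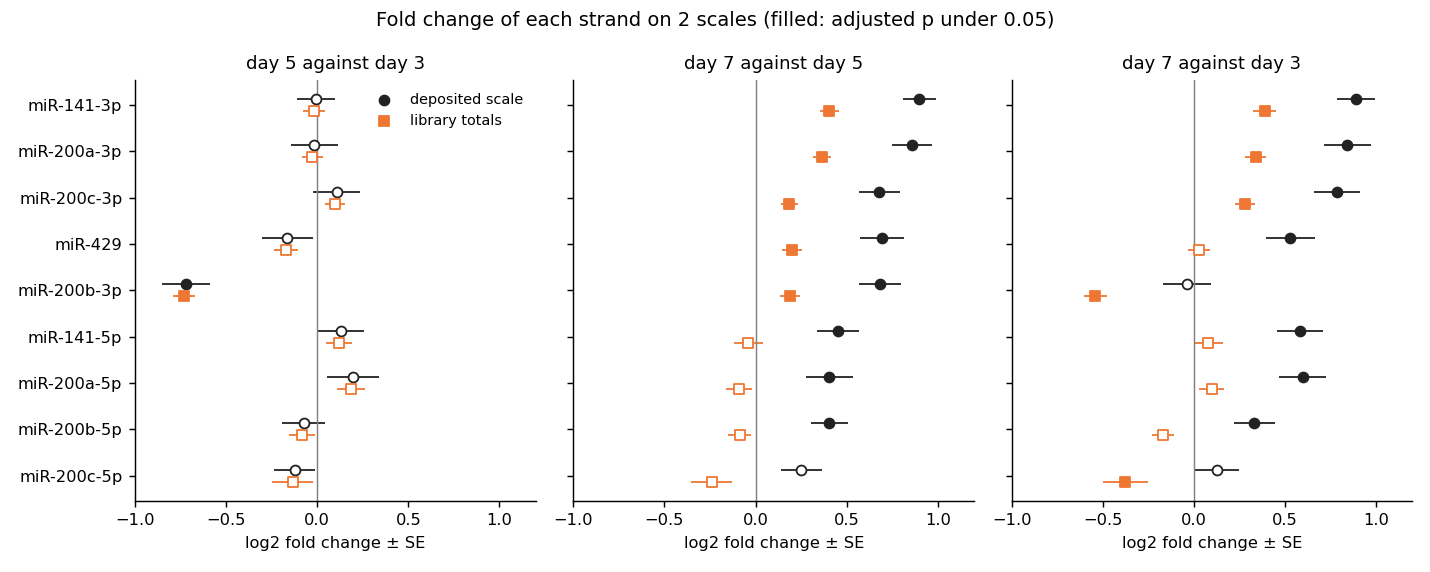
Log2 fold change of each strand with its standard error in the 3 comparisons of days, on the deposited scale (black circles) and on library totals (orange squares), filled where the adjusted p was under 0.05. From day 3 to day 5 miR-200b-3p alone is filled, and from day 5 to day 7 the 3p strands and miR-429 are filled on both scales, while of the 5p strands those of miR-141, miR-200a and miR-200b are filled on the deposited scale alone.

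Differences taken within a library do not depend on the scaling between libraries, and they were compared between days by two-sided exact permutation tests over libraries. With 3 libraries against 3 such a test cannot give p under 0.1, so no pair could pass the threshold, and p was adjusted over the 30 tests of 10 pairs of main strands. These comparisons were added after the values had been seen. Of the 30, 22 had days that did not overlap, where 68.3% did not over all pairs of miRNAs of at least 100 CPM, so that this count lay near the background. By comparison, 8 of 10 pairs did not overlap between days 3 and 5, where 58.7% of all pairs did not, 8 of 10 between days 3 and 7, where 71.6% did not, and 6 of 10 between days 5 and 7, where 74.6% did not.

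miR-200b-3p separated from its paralog with the same seed. The log2 difference of miR-200b-3p less miR-200c-3p was -1.60, -1.58 and -1.63 in the day 3 libraries, -2.38, -2.50 and -2.42 on day 5, and -2.38, -2.45 and -2.46 on day 7. It was lower by 0.83 on day 5 (exact p = 0.10, adjusted p = 0.14) and by 0.82 on day 7 (exact p = 0.10, adjusted p = 0.14), with all later libraries below all of day 3. Within its own cluster miR-200b-3p was also lower against its neighbours, with no overlap between day 3 and the later days. Less miR-429, its mean log2 difference was -0.90, -1.46 and -1.47 in the order of days, and less miR-200a-3p it was 1.44, 0.74 and 0.56. miR-200b-3p made up 16.9% ± 0.16 of the AAUACUG strands on day 3 (SD, n = 3), 10.9% ± 0.38 on day 5 and 10.9% ± 0.29 on day 7.

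The other pair of paralogs did not separate between days beyond the spread of its libraries. The log2 difference of miR-200a-3p less miR-141-3p was -3.52, -3.49 and -3.70 on day 3, -3.58, -3.63 and -3.52 on day 5, and -3.56, -3.66 and -3.63 on day 7. These groups overlapped in all 3 comparisons (exact p from 0.40 to 0.90), with mean shifts between -0.05 and -0.01. miR-200a-3p lies on chromosome 1 and miR-141-3p on chromosome 12. Set against its own neighbour miR-429, miR-200a-3p was 0.15 higher on day 5 and 0.31 higher on day 7 than on day 3 (exact p = 0.10 for each). Within the cluster 200b-200a-429, miR-200b-3p was lower on day 5, and miR-200a-3p was higher on day 7 on both scales. miR-429 was called higher on day 7 than on day 3 as deposited but not on library totals.

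**Figure D3:**
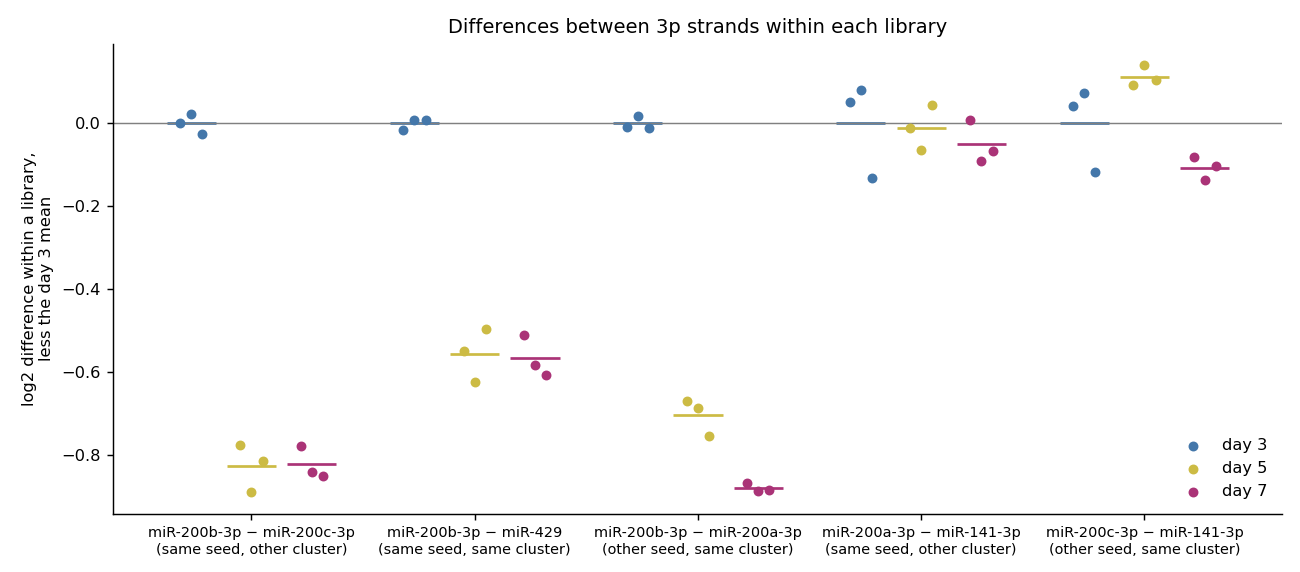
Log2 difference between 2 strands within each library, less its mean on day 3, for 5 pairs, with a point per library and a bar for the mean of each day. The 3 plotted differences that involve miR-200b-3p drop after day 3, by 0.56 to 0.88, whereas miR-200a-3p less miR-141-3p overlaps between all days.

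Compared as wholes, the clusters moved apart from day 3 to day 5. The mean log2 value of the 3p strands of 200c-141 exceeded that of miR-200b-3p, miR-200a-3p and miR-429 by 2.04 ± 0.073 (SD, n = 3) at first, then by 2.39 ± 0.031 and by 2.44 ± 0.031. The day 5 and day 7 libraries, from 2.37 to 2.46, lay above all day 3 libraries, from 1.99 to 2.13, and overlapped with each other. The cluster 200c-141 held 70.5% ± 1.15 of all family values on day 3, 74.9% ± 0.21 on day 5 and 75.9% ± 0.22 on day 7. Of the 5 strands compared here, miR-200b-3p was the one called between days 3 and 5. Log2 differences of a 200b-200a-429 strand less a 200c-141 strand shifted by -0.83 and -0.71 between those days where miR-200b-3p was in the pair. Pairs without it shifted by -0.27 to -0.01. The cluster difference was not computed without miR-200b-3p, so how much of the shift rests on this strand was not tested.

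The arms of the hairpins were also compared within libraries. In every library the 3p strand exceeded the 5p strand, by a day mean of 1.26 to 1.71 on the log2 scale for miR-200a, 2.29 to 2.74 for miR-141, 3.06 to 3.70 for miR-200b and 6.25 to 6.90 for miR-200c. Between day 5 and day 7 this difference widened in all 4 hairpins without overlap, by 0.45 for miR-200a, 0.45 for miR-141, 0.43 for miR-200c and 0.28 for miR-200b (exact p = 0.10 and adjusted p = 0.11 for each, over 12 tests). Of all hairpins with both strands past the filter, 42.6% had their main strand widen against the other strand in this step without overlap, and 20.6% had the 3p strand higher against the 5p strand. Between day 3 and day 5 the hairpins differed in sign. For miR-200b the difference was 3.73, 3.79 and 3.60 on day 3 and 3.03, 3.00 and 3.14 on day 5, lower by 0.65, and for miR-200a it was lower by 0.21. For miR-200c it was higher by 0.23, and for miR-141 the days overlapped (-0.14, exact p = 0.20). The 5p strand of miR-200b was at 99.8 ± 2.83 CPM on day 3 and 94.4 ± 6.30 on day 5 (SD, n = 3), and the days overlapped, while those of the 3p strand did not.

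**Figure D4:**
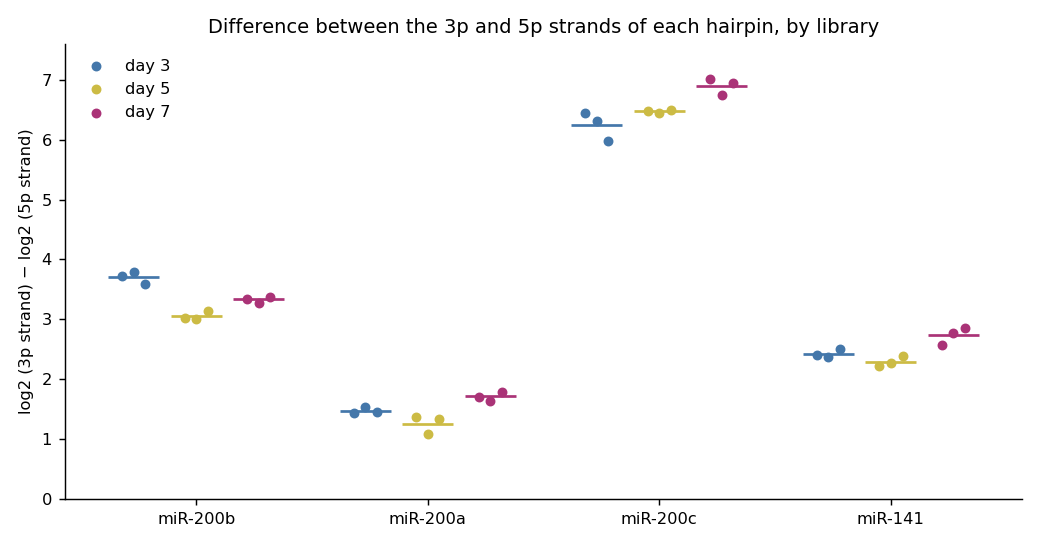
Log2 value of the 3p strand less that of the 5p strand of the same hairpin in each library, with the mean of each day as a bar. The day 7 libraries lie above those of day 5 for all 4 hairpins, and for miR-200b all libraries of days 5 and 7, from 3.00 to 3.38, lie below those of day 3, from 3.60 to 3.79.

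Other miRNAs followed each cluster more or less closely over the 9 libraries. Among 204 miRNAs of at least 100 CPM, the 5 most like the mean of 200c-141 on library totals were miR-425-5p, miR-181a-5p, miR-182-5p, miR-30d-5p and miR-151b, with Pearson's r between 0.97 and 0.98. The 5 most like the mean of miR-200b-3p, miR-200a-3p and miR-429 were miR-27b-3p, miR-221-5p, miR-30c-5p, miR-125b-5p and miR-151a-5p, with r between 0.89 and 0.94. These are descriptions over libraries that share a total and fall into 3 days. Between members, r was 0.94 for miR-200a-3p with miR-141-3p, 0.89 for miR-200a-3p with miR-200c-3p, -0.18 for miR-200a-3p with miR-200b-3p and -0.55 for miR-200b-3p with miR-200c-3p. For miR-429 it was 0.58 with miR-200a-3p, 0.57 with miR-200b-3p, 0.52 with miR-141-3p and 0.34 with miR-200c-3p. For miR-141-3p it was 0.88 with miR-200c-3p and -0.24 with miR-200b-3p.

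The whole transcriptome libraries allowed the family's targets and host RNA to be read for days 3 and 5. Values are the authors' normalised signal per gene, from 27470978 to 56689369 reads per library, tested with limma on log2(value + 1). Of 20129 genes tested, 56.9% passed, 29.3% higher and 27.6% lower on day 5, with a median log2 difference of 0.01. Most genes tested thus differed, and a list has to be read against that share. The lists were chosen with earlier results of these data known, so their counts beside that share are descriptions only. The epithelial markers EPCAM, an adhesion molecule, and CDH1 were both present in all 6 libraries, EPCAM with values from 6932 to 7403.

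The host lncRNA of 200c-141, MIR200CHG, had values of 60.6, 58.1 and 72.3 on day 3 and 56.4, 79.3 and 75.6 on day 5. The days overlapped, and the log2 difference was 0.13 (SE 0.16, adjusted p = 0.50). The rows of the 5 hairpins MIR200A, MIR200B, MIR200C, MIR141 and MIR429 held 0 to 14 reads per library and were not tested, so the fall of miR-200b-3p could not be set beside its precursor. Among the genes around the clusters, PTPN6, a tyrosine phosphatase gene upstream of MIR200C, was higher by 0.90 (SE 0.073, adjusted p = 0.00031) and ATN1 (atrophin 1), which encodes a transcriptional corepressor, by 1.17 (SE 0.11, adjusted p = 0.00040). TNFRSF18 and PHB2 did not pass, and TTLL10 was not tested.

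ZEB1 and ZEB2, the best known targets, were both lower on day 5. ZEB1 had values of 646, 669 and 619 on day 3 and 406, 372 and 348 on day 5, a log2 difference of -0.78 (SE 0.089, adjusted p = 0.00077). ZEB2, much closer to the limit of detection with 9 to 27 reads per library on day 3 and 2 to 6 on day 5, had values of 15.8, 16.7 and 12.8, then 6.51, 2.14 and 6.21, a log2 difference of -1.53 (SE 0.35, adjusted p = 0.012). In both genes the days did not overlap. CDH1, which ZEB1 and ZEB2 repress, had values of 572, 669 and 672 on day 3 and 3787, 4024 and 4009 on day 5, higher by 2.63 (SE 0.094, adjusted p = 0.00010). The main strands of the family, apart from miR-200b-3p, did not pass between those days, and the summed family share was lower by 0.049 percentage points, or by 0.151 with the most abundant miRNA left out of the total.

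Both ZEB 3′UTRs hold many matches to the family seeds. The letters searched, on the sense strand of the 3′UTR, were CAGTATT for the seed AAUACUG and CAGTGTT for AACACUG. They do not overlap each other in the sites shown. Among the 3′UTRs of 18780 MANE Select transcripts, 16.4% held CAGTATT, 18.5% CAGTGTT and 28.7% either. In ZEB1 the 3′UTR of 2540 bases held 6 and 3 matches, and in ZEB2 that of 5370 bases held 5 and 4. A few of these are shown 5′ to 3′ on the sense strand, on GRCh38, with the match in capitals, to show that both seed groups have their letters in the same 3′UTR.
ZEB1, chr10:31527618-31527640, plus strand: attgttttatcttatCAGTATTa
ZEB1, chr10:31528562-31528584, plus strand: tgtcttcaaacctggCAGTATTa
ZEB1, chr10:31528782-31528804, plus strand: tgagatttgatttaaCAGTGTTa
ZEB2, chr2:144388989-144389011, minus strand: cgcactacaatgcatCAGTATTa
ZEB2, chr2:144388669-144388691, minus strand: cctttgcaccagcttCAGTGTTa
A match is a description of the letters and not a measured site.

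Reported miR-200 targets as a list did not move one way. Of 22 listed genes 21 were tested, and 17 passed, 12 higher and 5 lower, with a median log2 difference of 0.51. Of all genes tested, 29.3% were higher and 27.6% lower, so more listed genes were higher than that share. At least 1.5-fold higher were ERRFI1, a feedback inhibitor of the EGF receptor, at 2.15 (SE 0.11), MAML3, a Notch co-activator, at 1.85 (SE 0.22), and FN1 (fibronectin), at 1.81 (SE 0.11). The Wnt-pathway repressor TCF7L1 was at 1.43, the membrane and actin linker MSN (moesin) at 1.35, the Notch ligand JAG1 at 1.03, the Notch co-activator MAML2 at 0.79 and the phosphatase PPM1F at 0.71. All 8 had adjusted p between 0.00016 and 0.0022. At least 1.5-fold lower were, besides ZEB1 and ZEB2, the actin-binding CFL2 (cofilin 2) at -1.04 (SE 0.082, adjusted p = 0.00028) and RND3 at -0.66 (SE 0.075, adjusted p = 0.00076). The 3′UTR held a seed match in 18 of the 22, and of these 8 were higher and 5 lower. The 4 without a match, TCF7L1, JAG1, MAML2 and MAML3, were all higher. Only exact matches to the whole seed in the MANE Select 3′UTR of each gene were searched. Shorter matches and other transcripts were not, so a gene without a match may still hold a site.

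Epithelial genes were higher on day 5 in nearly every case. All 13 listed were tested, and 11 passed, all higher, with a median log2 difference of 0.76, where 29.3% of all genes were higher. Beside CDH1, the largest were OVOL1, an epithelial transcription factor, at 1.76 (SE 0.17), ST14 (matriptase, a membrane protease) at 1.61 (SE 0.13), PKP3 (plakophilin 3, of desmosomes) at 1.58 (SE 0.15) and CLDN7 (claudin 7, of tight junctions) at 1.57 (SE 0.12). The polarity genes LLGL2 and CRB3 were at 0.85 and 0.76, and the splicing regulators ESRP1 and ESRP2 at 0.73 each. These 9 genes had adjusted p between 0.00010 and 0.0037. EPCAM was at 0.0022 (SE 0.073, adjusted p = 0.98). Of the 13, only ESRP1 and GRHL2 held a seed match.

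Of the listed mesenchymal genes 1 passed, where 56.9% of all genes tested did. FN1, higher on day 5, was listed among the targets and is not counted here. Of 8 listed, 7 had a row and 5 were tested, and TGFB1, a secreted growth factor, was the one called, with values of 574, 721 and 790 on day 3 and 2203, 2255 and 2287 on day 5, higher by 1.71 (SE 0.13, adjusted p = 0.00027). VIM (vimentin) was at -0.10 (SE 0.15, adjusted p = 0.61), with values from 253 to 369. The transcription factors SNAI1, at 0.41 (SE 0.17, adjusted p = 0.083), and TWIST1, at 0.60 (SE 0.26, adjusted p = 0.095), did not pass, nor did the growth factor TGFB2, at -0.20 (SE 0.13, adjusted p = 0.26). CDH2 (N-cadherin) and SNAI2 stayed under the filter, with 0 to 11 reads per library.

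**Figure D5:**
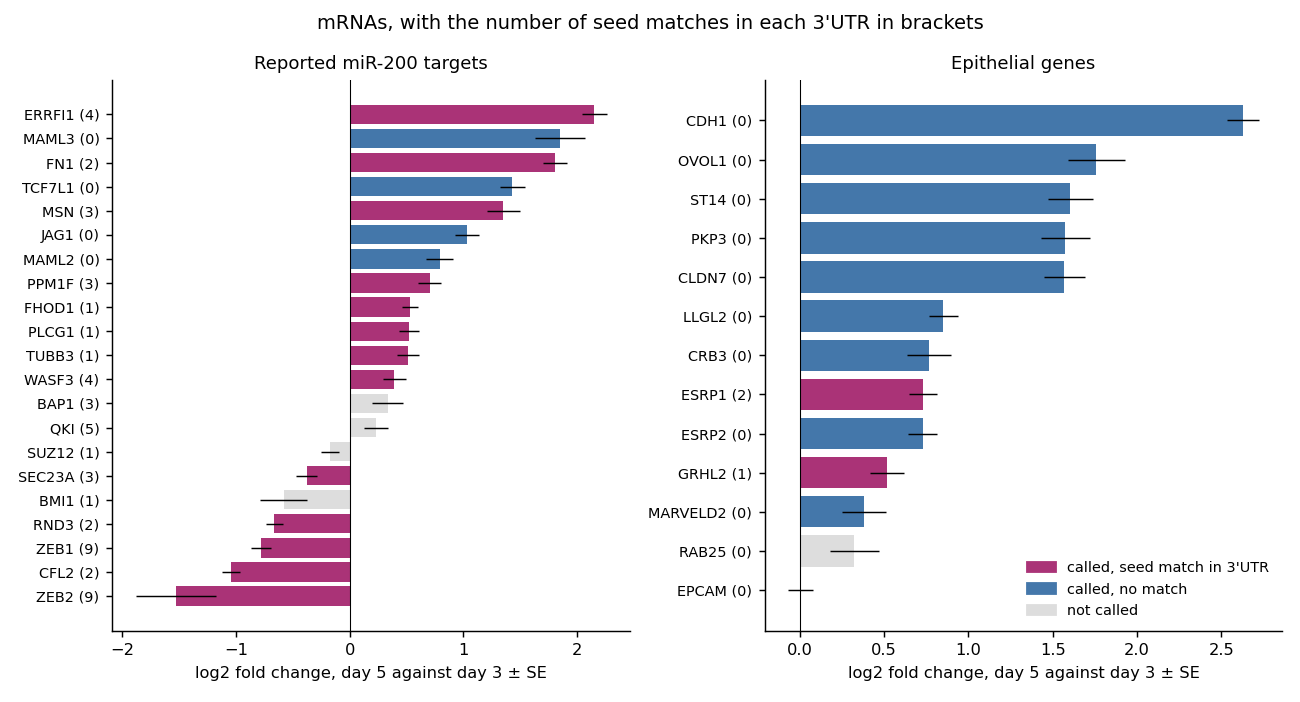
Log2 fold change with its standard error, day 5 against day 3, of the 21 reported miR-200 targets tested and the 13 epithelial genes, coloured by whether the gene passed and whether its 3′UTR held a seed match (number in brackets). The targets run from ZEB2 at -1.53 to ERRFI1 at 2.15, while no epithelial gene passed on the lower side.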

How the data were processed

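HCT116 small-RNAseq (9 libraries) and whole transcriptome RNAseq (6 libraries) were grouped by the day and replicate in the sample labels. For small RNA, the authors trimmed reads with Cutadapt, aligned them with mature miRNA and hairpin sequences of GRCh37 and normalised them (TMM and edgeR are named); the deposited values are log2 values whose transformation is not given in the sources used here, and although the study states a range of reads per library, the files give no read counts for them. For the whole transcriptome, the authors mapped reads strand-specifically to hg38 genes in CLC Genomics Workbench, and the deposited values are a normalised signal per gene. CPM here is a back-transformed log2 value relative to its library's sum over mature miRNAs, computed for this work and not read counts. The signal was 100% whole multiples of 1 read, within 0.05 reads, in each library. FastQC 0.11.8 and MultiQC 1.7 are named in the submitters' processing notes. Fold changes and adjusted p-values of the authors' comparisons, also in the tables, were not used.

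limma 3.58.1 (R 4.3.3) was fitted to the log2 values, and to log2(value + 1) of the signal, for features that reached 10 in 3 or more of the libraries compared, in the 6 libraries of each comparison; day 7 against day 5 came from a fit over all 9. Fold changes with a pseudocount understate those of low genes. Simulated data with known changes were used to test this fit. edgeR 4.0.16 and DESeq2 1.42.0 were run on the recovered reads as alternatives. P-values measure the spread between the labelled replicates. Matched strands and 3′UTRs came from RefSeq tables (GRCh38.p14) and GENCODE release 44. Python 3.11.15 was used.

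The members and gene lists were chosen with earlier results of these data known. Named were the listed genes past an adjusted p of 0.05 and 1.5-fold, plus ZEB1, ZEB2, CDH1 and MIR200CHG whatever their values, and for each cluster the 5 most alike miRNAs; TNFRSF18, PHB2, TTLL10, EPCAM, VIM, CDH2, SNAI1, SNAI2, TWIST1, TGFB2 and GRHL2 were named after their values were seen.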

Additional observations from a re-analysis of the deposited data

How the results depend on the processing

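The fall of miR-200b-3p from day 3 to day 5 and the wider cluster difference on days 5 and 7 than on day 3 kept their direction under every alternative run. No alternative left miR-200b-3p out of the cluster difference. At a 2-fold minimum 0 family strands passed in each of the 3 comparisons. Of all miRNAs tested, 10.4% did for day 7 against day 3, 2.6% for day 5 against day 3 and 3% for day 7 against day 5. Without the filter on low values 0 family strands passed for day 5 against day 3 (limma), where miR-200b-3p alone had an unadjusted p under 0.05. For day 7 against day 5, 5 strands passed on library totals, against 8 as deposited. Leaving out each library in turn gave 3 to 5 strands there, 3 without day 5 replicate 3, an alternative chosen after seeing the data. For day 7 against day 3, library totals turned miR-200b-5p to -0.17 and miR-200c-5p to -0.37, and median centring turned miR-200c-5p to -0.015. For day 7 against day 5, library totals turned the 5p strands of miR-141, miR-200a, miR-200b and miR-200c to -0.041, -0.088, -0.087 and -0.24. The cause was not tested. For day 5 against day 3, median centring put miR-141-3p at 0.042 and miR-200a-3p at 0.032. Leaving out each library in turn gave miR-141-3p between -0.068 and 0.034, miR-200a-3p between -0.14 and 0.064 and miR-200c-3p between -0.014 and 0.18, and, for day 7 against day 3, miR-200b-3p between -0.17 and 0.051, and none of these passed. As deposited, miR-200b-5p lost its call for day 7 against day 3 without day 3 replicate 1 and without each day 7 library (adjusted p 0.062 to 0.13), as did, for day 7 against day 5, miR-141-5p without day 5 replicate 3 (0.052) and miR-200a-5p without day 5 replicate 1 or 3 or day 7 replicate 1 or 2 (0.066 to 0.10).

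The rise of the family share from day 3 to day 7 (0.243 percentage points) was 0.238 for the 3p strands and miR-429 and 0.196 with the most abundant miRNA left out of the total. The latter gave -0.151 for day 5 less day 3 (-0.049 as reported) and 0.347 for day 7 less day 5 (0.291). The cluster difference from day 5 to day 7 was 0.094 with summed values, against 0.044. At a 2-fold minimum 8 targets and 5 epithelial genes passed, where 3589 of 20129 genes tested did, 2059 of them higher. Of the mesenchymal genes 2 passed with DESeq2, with edgeR and on library totals, and 1 to 2 with each library left out, 2 without day 3 replicate 3, day 5 replicate 1 or day 5 replicate 2.

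With the replicate number as a block, 7, 1 and 9 family strands passed for day 7 against 3, 5 against 3 and 7 against 5. Of all miRNAs tested, 54%, 13.2% and 44.8% passed in the same order. In the same way 17 targets, 10 epithelial genes and 1 mesenchymal gene passed, where 10533 of 20129 genes did. The same replicate numbers did not clearly pair the libraries. Correlations of same-numbered deviations were between -0.08 and 0.12 for small RNA and between -0.01 and 0.03 for the whole transcriptome. The samples share only a number. Among the day 5 small RNA libraries, the same-numbered one correlated best with each day 3 library. These correlations were 0.087, 0.12 and 0.11 for replicates 1, 2 and 3, and the others between those days were negative. This did not hold for the other pairs of days.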
